A study of Mus musculus with 15 samples.

Results

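Numb and Numbl (Numb-like) encode a pair of related cytoplasmic adaptor proteins. The listed transcripts whose gene name in the GENCODE M21 annotation is Numb or Numbl were 3 of 10370. Of the 12 annotated transcripts of Numb, 1 was listed, and of the 5 annotated transcripts of Numbl, 2 were listed. The remaining transcripts of these genes were not analysed here. The genes were chosen by the difference between the groups below: in an earlier look at these values, a Numbl transcript with a retained intron stood among the largest differences. Their differences between groups are therefore given as a description, without a test.

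Numb proteins inherited or enriched on one side of a dividing cell oppose signaling by the Notch receptors, and so help daughter cells to take different fates. They carry a phosphotyrosine-binding domain and short motifs that bind the clathrin adaptor AP2 and EH-domain proteins such as Eps15, which links them to endocytosis of membrane proteins. In the embryonic cortex both genes act in neural progenitors, and in differentiated neurons they take part in neurite growth and in trafficking of membrane proteins. When an intron stays in a transcript, the reading frame usually runs into a stop codon, and such RNAs are often kept in the nucleus or degraded.

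The libraries were made from dissected cortex of male C57BL/6 mice labelled as 12 weeks of age. One group (Sham, 7 libraries) was handled and anesthetized without impacts, and the other (HF-HI, 8 libraries) received high-frequency head impact, a model of repeated impacts on consecutive days in anesthetized mice. Both were collected at 1 month. The tissue is whole cortical homogenate, so less RNA of a transcript per cell and fewer cells that contain it cannot be told apart. The labels do not state that each library came from a separate mouse, and spreads between libraries may be technical.

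Library depth differed between the groups. The size factor, by which each library's counts were divided, was 0.818 to 1.47 among Sham libraries and 0.501 to 1.22 among HF-HI libraries. HF-HI replicate 2 stood apart on the first principal component, with a value of 12.6 against −3.35 to 0.721 in the other libraries. It was also the library with the most Numbl retained-intron transcript. The log2 differences of both Numbl transcripts and of their ratio are given with and without it below. Most other values are given only with it. All 6 cortical excitatory neuron markers were listed (7 transcripts), with a summed level of 14148 to 16122 normalized counts in Sham and 15129 to 16855 in HF-HI, and 2 of the 7 transcripts were called higher in HF-HI. A call means an unadjusted p under 0.05 in limma, a linear model fitted to every transcript, which 8.83% of all transcripts reached (4.94% higher, 3.9% lower). Of 5 striatal markers, 4 were listed (6 transcripts, 2 called lower), with a summed level of 1953 to 3334 in Sham and 1665 to 3108 in HF-HI, and Drd2 was not listed. Of 5 microglial markers, 4 were listed (4 transcripts, 1 called lower), with 1092 to 1237 in Sham and 985 to 1225 in HF-HI, and Aif1 was not listed. All 6 astrocyte markers were listed (10 transcripts, 1 called lower), with 40273 to 42749 in Sham and 39241 to 45170 in HF-HI. No transcript of the interneuron, oligodendrocyte, oligodendrocyte precursor, endothelial or choroid plexus markers was called. The choroid plexus marker Ttr had 35.0 to 6685 normalized counts in Sham and 21.04 to 8663 in HF-HI, and the highest value was that of HF-HI replicate 2. The part of these markers in the results was not tested.

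Numbl lies on the plus strand of chromosome 7 in GRCm38 (mm10). The coding transcript, ENSMUST00000079258 (27258725 to 27282141, 10 exons, 2760 bases), has 9 introns. The retained-intron transcript, ENSMUST00000149805 (27258806 to 27282144, 8 exons, 8511 bases), keeps 2 of these. Intron 1 (27258962 to 27262167, 3206 bases, 51.7% G or C) and intron 2 (27262253 to 27264875, 2623 bases, 49.3% G or C) join the first 3 exons into a single long exon, and the next 6 exons have identical ends in both transcripts. The annotation gives the retained-intron transcript no coding sequence.

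**Figure D1:**
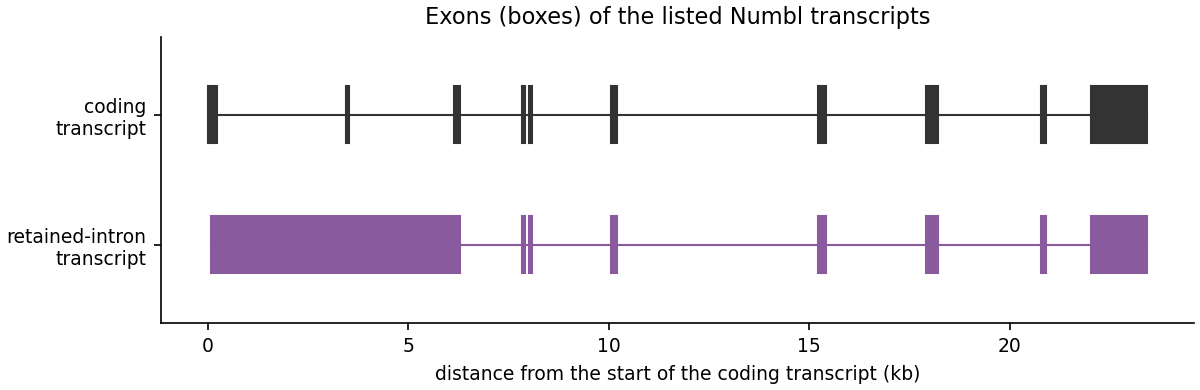
Exons (boxes) and introns (lines) of the listed Numbl transcripts, by distance in kb from the start of the coding transcript. The first exon of the retained-intron transcript spans exons 1 to 3 and introns 1 and 2 of the coding transcript, and the later exons are shared.

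The splice sites that remain unused in the retained-intron transcript are shown because they are what tells it from the coding transcript. Each line has 20 bases of exon and 30 bases of intron, 5′ to 3′, and the capitals mark the first or last 2 bases of the intron. All 4 sites carry the usual GT at the donor and AG at the acceptor.
Intron 1 donor, chr7:27258942-27258991, plus strand: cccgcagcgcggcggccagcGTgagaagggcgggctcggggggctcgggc
Intron 1 acceptor, chr7:27262138-27262187, plus strand: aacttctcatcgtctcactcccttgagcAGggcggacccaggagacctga
Intron 2 donor, chr7:27262233-27262282, plus strand: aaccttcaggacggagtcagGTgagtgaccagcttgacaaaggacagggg
Intron 2 acceptor, chr7:27264846-27264895, plus strand: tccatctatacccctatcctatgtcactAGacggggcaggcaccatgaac

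Intron 1 interrupts the Numbl reading frame after 8 codons. Read on from the start codon of the coding transcript, the retained-intron transcript reached a stop codon after 24 codons, 51 bases into the intron. The line below runs from the start codon to that stop, which is in capitals.
Numbl start codon into intron 1, chr7:27258938-27259012, plus strand: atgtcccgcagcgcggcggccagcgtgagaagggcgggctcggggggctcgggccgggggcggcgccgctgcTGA

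The Numbl transcripts overlap over most of their spliced sequence. They share 2679 exonic bases, which is 97.1% of the coding transcript and 31.5% of the retained-intron transcript. Only 81 bases belong to the coding transcript alone, apart from the junctions across introns 1 and 2, whereas 5832 bases belong to the retained-intron transcript alone. Reads from the shared bases were divided between the transcripts by the authors' counting program, and the part of this division in the values was not tested. The libraries were made from total RNA, and introns 1 and 2 make up 68.5% of the retained-intron transcript. The values do not tell its reads from those of unspliced Numbl RNA, whose part was not tested. The noncoding gene Gm44641, on the same strand, has an exon with the same ends as exon 2 of Numbl and spans intron 1, and it had no listed transcript.

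Numb lies on the minus strand of chromosome 12. Its listed transcript, ENSMUST00000117217 (83794034 to 83921934, 11 exons, 3549 bases), is coding. A run of 3 coding exons has the same lengths in both genes, with 78.7% identity between exon 4 of Numbl and exon 5 of Numb (75 bases), 77.3% between exons 5 and 6 (75 bases) and 75.2% between exons 6 and 7 (141 bases). The first of these pairs is printed to show how far the family members differ, with the 16 differing bases in capitals.
Numbl exon 4, chr7:27266555-27266629, plus strand: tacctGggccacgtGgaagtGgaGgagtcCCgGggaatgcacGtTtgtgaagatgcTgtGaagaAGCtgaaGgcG
Numb exon 5, chr12:83831922-83831996, minus strand: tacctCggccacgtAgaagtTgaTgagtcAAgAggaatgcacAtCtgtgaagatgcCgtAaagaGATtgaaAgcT
The longest run of identical bases between the Numb transcript and either Numbl transcript was 14 bases.

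The retained-intron transcript of Numbl was higher in HF-HI. Normalized counts, the reads of a library divided by its size factor, were lowest at 172, with a median of 204 and a highest value of 265, in Sham. In HF-HI the lowest was 274, the median 292 and the highest 392. The groups did not overlap, and the HF-HI libraries with the most were replicates 2, 7 and 1. Means were 217 ± 32.5 (SD, n = 7) and 316 ± 48.2 (SD, n = 8), a ratio of 1.45. On the log2 scale the difference was 0.54 ± 0.11 (SE), and 0.49 without HF-HI replicate 2. Over all listed transcripts, 0.0964% had every HF-HI library above every Sham library, and nothing is read from this, because the transcript was chosen for its difference.

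The coding transcript of Numbl was lower in HF-HI. In Sham the lowest library had 257 normalized counts, the median was 299 and the highest was 336. In HF-HI the lowest had 76.9, the median was 138 and the highest was 308. The groups overlapped: 6 of 8 HF-HI libraries lay below every Sham library, while replicates 4 and 7, with 308 and 272, lay within the Sham range. Means were 303 ± 27.0 (SD, n = 7) and 169 ± 87.1 (SD, n = 8), a ratio of HF-HI to Sham of 0.558. The log2 difference was −0.998 ± 0.267 (SE), and −0.86 without HF-HI replicate 2. Log2 differences here are between group means of log2 values, on which low libraries weigh more. The log2 of the ratio of means was −0.84. Every HF-HI library lay below every Sham library in 0.0579% of all transcripts, and this transcript was not among them.

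The spread of the coding transcript also differed between the groups. The SD was 8.93% of the mean in Sham and 51.6% in HF-HI. From lowest to highest library, the level differed by 1.31 times in Sham and by 3.998 times in HF-HI. For the retained-intron transcript the SD was 14.98% and 15.3% of the mean, and for Numb it was 10.02% and 8.55%. The wide range in HF-HI was seen in the coding transcript of Numbl and not in the other members.

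Numb had similar levels in both groups. Its coding transcript had 279 normalized counts in the lowest Sham library, a median of 319 and a highest value of 354. In HF-HI the lowest was 282, the median 327 and the highest 351. All 8 HF-HI libraries lay within the Sham range. Means were 316 ± 31.7 and 323 ± 27.7 (SD), with a log2 difference of 0.04 ± 0.07 (SE). The ratio of coding Numbl to Numb, taken within each library, averaged 0.968 ± 0.143 in Sham and 0.514 ± 0.243 in HF-HI (SD), and 6 of 8 HF-HI libraries lay below every Sham library.

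**Figure D2:**
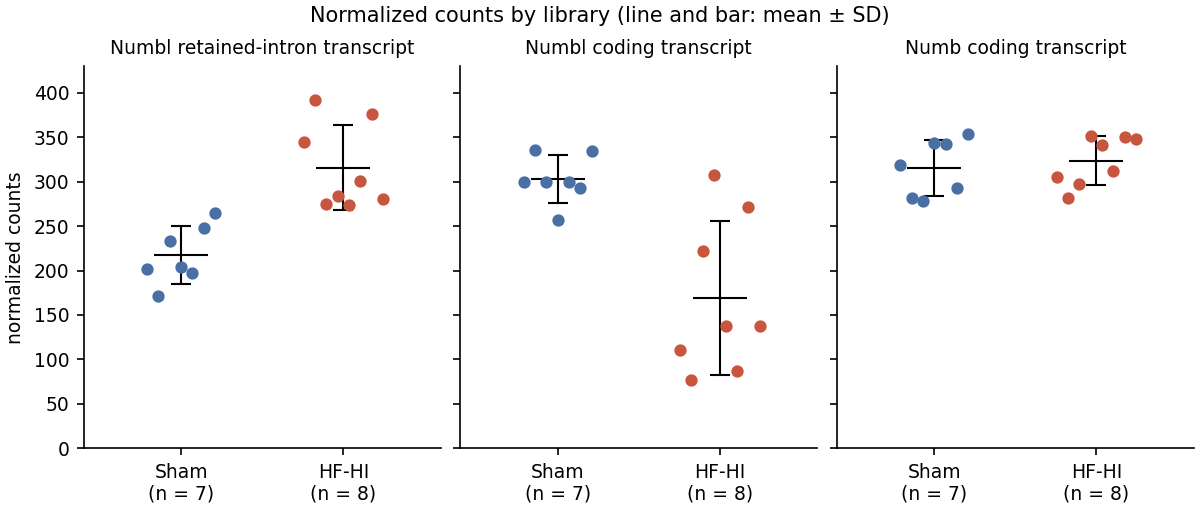
Normalized counts of the 3 listed transcripts in each library (points), with the mean and SD of 7 Sham and 8 HF-HI libraries. The retained-intron transcript of Numbl has no overlap between groups, the coding transcript ranges from 76.9 to 308 in HF-HI, and Numb overlaps throughout.

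Summed over both transcripts, Numbl reads changed less than either transcript did. The sum had a lowest value of 460 normalized counts, a median of 507 and a highest of 600 in Sham, and 389, 462 and 648 in HF-HI. Of the 8 HF-HI libraries, 4 lay below every Sham library, 3 within the Sham range and 1 above it. The mean was 520 ± 43.9 in Sham and 485 ± 91.4 in HF-HI (SD). The mean of the coding transcript fell by 134 normalized counts, that of the retained-intron transcript was 98.7 higher, and that of the sum fell by 35.0. The log2 difference of the sum was −0.12 ± 0.11 (SE), and it became −0.29 when the log2 size factor of each library entered the fit as a covariate.

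Of the reads on the 2 listed Numbl transcripts, the share on the retained-intron transcript was higher in HF-HI. It was 41.7% ± 4.12 (SD, n = 7) in Sham and 66.5% ± 12.2 (SD, n = 8) in HF-HI. In Sham it ran from 33.8% in replicate 2 (95% Wilson interval 29.99 to 37.9%, 550 reads) to 45.8% in replicate 6 (42.2 to 49.4%, 725 reads). In HF-HI it ran from 48.0% in replicate 4 (42.3 to 53.7%, 296 reads) to 83.6% in replicate 2 (79.0 to 87.3%, 305 reads). These intervals take the transcript of each read as known, so they cover counting error only and leave out the division of shared reads. The groups did not overlap, and nothing is read from this, because the pair was chosen for its difference. The interval of HF-HI replicate 4 covered the highest Sham values, so this library was not separated from Sham at its depth. The retained-intron transcript held more reads than the coding transcript in 7 of 8 HF-HI libraries and in 0 of 7 Sham libraries.

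**Figure D3:**
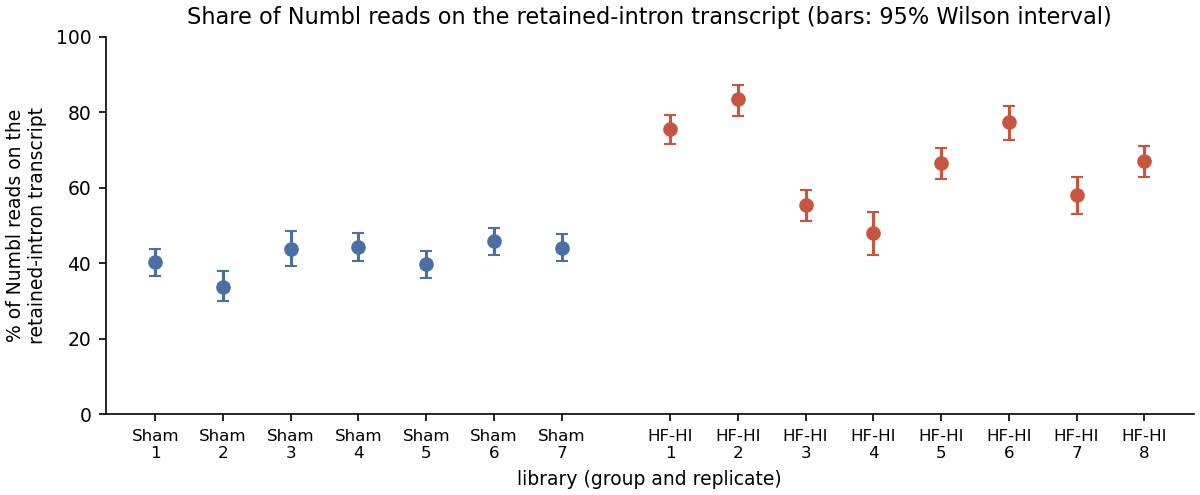
Percentage of the reads on the 2 listed Numbl transcripts that fell on the retained-intron transcript, in each of 15 libraries, with 95% Wilson intervals. These cover counting error only and leave out the division of shared reads. Sham libraries sit between 33.8% and 45.8% and HF-HI libraries between 48.0% and 83.6%.

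Per length, the order of the transcripts differed between the groups. In normalized counts per kb, coding Numbl averaged 110 ± 9.79, Numb 89.0 ± 8.92 and retained-intron Numbl 25.5 ± 3.82 in Sham (SD). The ranges of coding Numbl (93.0 to 122) and Numb (78.6 to 99.7) overlapped, and the retained-intron transcript lay apart at 20.2 to 31.1. In HF-HI, Numb averaged 91.2 ± 7.79, coding Numbl 61.2 ± 31.6 and retained-intron Numbl 37.1 ± 5.67. There the range of coding Numbl (27.9 to 111) covered those of both neighbours. Within a library, coding Numbl exceeded the retained-intron transcript per kb by 3.65 to 6.03 times in Sham, and by 0.605 to 3.34 times in HF-HI, where 3 of 8 libraries had a ratio below 1.

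The log2 ratio of the retained-intron to the coding transcript summarizes both changes. Its mean was −0.49 ± 0.25 in Sham and 1.05 ± 0.83 in HF-HI (SD), a difference of 1.54 ± 0.33 (SE). Sham libraries lay between −0.96 and −0.24 and HF-HI libraries between −0.12 and 2.34, without overlap. Of 622 pairs of a retained-intron and a coding transcript of the same gene, 1 had every HF-HI ratio above every Sham ratio. Nothing is read from this, because the pair was chosen for its difference. With the log2 size factor as a covariate the difference was 1.64, and among libraries of overlapping depth (2 Sham and 4 HF-HI) it was 1.65. Over the fits that each left out 1 library it lay between 1.35 and 1.70, with the lowest value without HF-HI replicate 2.

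**Figure D4:**
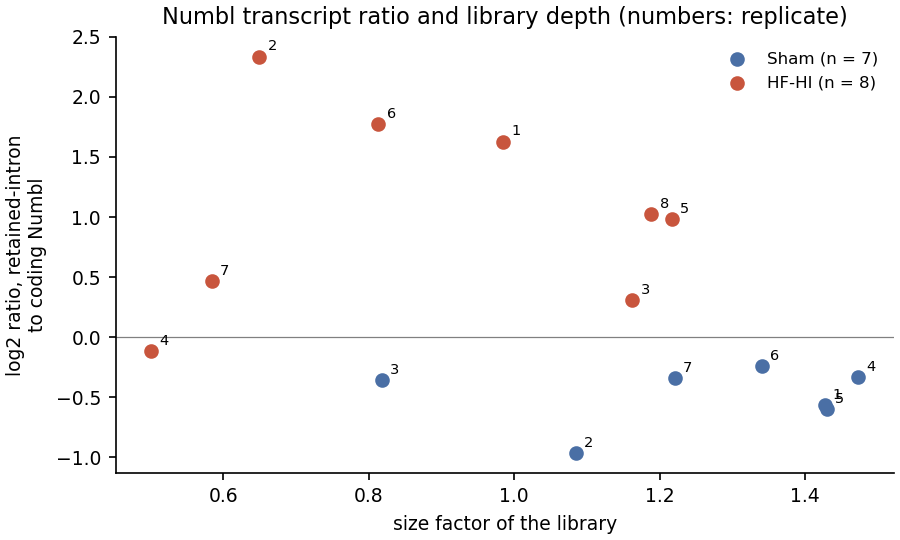
Log2 ratio of the retained-intron to the coding Numbl transcript against the size factor of each library, with replicate numbers beside the points. HF-HI replicate 4, the library with the lowest size factor (0.501), has the lowest HF-HI ratio (−0.12), and all 7 Sham ratios lie below it.

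Within each group, no relation between the Numbl transcripts was detected. Across the 7 Sham libraries, log2 counts of the retained-intron and coding transcripts had a Pearson r of 0.04 (exact permutation p = 0.932) and a Spearman rho of −0.18 (exact permutation p = 0.713). Across the 8 HF-HI libraries, r was −0.28 (exact permutation p = 0.482) and rho was −0.38 (exact permutation p = 0.360). Without the 2 libraries farthest from the median of the coding transcript, r was 0.56 in Sham (exact permutation p = 0.383) and −0.75 in HF-HI (exact permutation p = 0.0944). All tests were two-sided, and no relation among the 8 computed passed adjustment, the smallest Benjamini-Hochberg value being 0.278.

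The other 6 of the 8 relations set each transcript against the log2 size factor. In HF-HI, Pearson r was −0.52 for retained-intron Numbl (exact permutation p = 0.188), −0.30 for coding Numbl (exact permutation p = 0.451) and −0.13 for Numb (exact permutation p = 0.759). In Sham, r was −0.14 (exact permutation p = 0.761), −0.39 (exact permutation p = 0.375) and 0.68 (exact permutation p = 0.0766) in the same order. Spearman rho in that order was −0.69 (exact permutation p = 0.0694), −0.24 (exact permutation p = 0.582) and −0.29 (exact permutation p = 0.501) in HF-HI. It was −0.18 (exact permutation p = 0.713), −0.75 (exact permutation p = 0.0663) and 0.64 (exact permutation p = 0.139) in Sham. Without the 2 libraries farthest from the median size factor, r in HF-HI became −0.86, 0.84 and 0.73, and in Sham −0.93, −0.83 and −0.10, so the relations of coding Numbl and Numb in HF-HI and of Numb in Sham changed sign and rested on those libraries.

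Numbl was 1 of 266 genes with both a retained-intron and a coding transcript listed, which together form 622 pairs. The pair was chosen for its difference, so its place among the pairs is a description from which nothing is read. Its ratio difference of 1.54 was the 6th highest of these pairs, where the median was 0.04. By size in either direction it ranked 11. The Numbl pair was the only 1 of the 622 in which every HF-HI library had a higher ratio than every Sham library, and 0 pairs had the opposite arrangement. In limma, 5 pairs of other genes had the retained-intron transcript called higher and the coding transcript called lower at an unadjusted p under 0.05, and 2 had the reverse. The genes of these 5, named after their values were seen, were Shisa4, Calr, Acaa1a, Ptk2b and Atp8a1. Other retained-intron transcripts together held 1.19 to 1.30% of the listed reads in Sham and 1.25 to 1.31% in HF-HI, and their part in the Numbl result was not tested.

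At a Benjamini-Hochberg adjusted p under 0.1, 0% of all transcripts passed in limma (0 of 10370, against 916 at the unadjusted level). This result belongs to limma on the deposited values. The authors tested with DESeq2, a count model that was not fitted here. At an unadjusted p under 0.05 in limma, 10.2% of the 363 listed retained-intron transcripts were called higher and 3.86% lower. Over all transcripts these shares were 4.94% and 3.9%. The median log2 difference of the retained-intron transcripts was 0.03, against −0.01 over all transcripts.

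Calls among transcripts of the Notch pathway went in both directions, and none passed adjustment. Of 45 genes in the list, 25 were listed, with 34 transcripts, of which 3 were called higher and 1 lower at an unadjusted p under 0.05 (11.8%, against 8.83% of all transcripts). Calls in the list numbered 2 with a replicate block and 0 with the log2 size factor as a covariate. Dtx4, a ubiquitin ligase of the Deltex family, rose from 426 ± 33.3 to 477 ± 42.9 normalized counts (SD), with 7 of 8 HF-HI libraries above the Sham median. A noncoding transcript of Mib2, whose protein is a ubiquitin ligase acting on Notch ligands, rose from 133 ± 37.3 to 175 ± 28.4, whereas its coding transcript, at 358 ± 27.3 and 326 ± 41.7, was not called. Adam10, the protease that cleaves Notch at the cell surface, rose from 742 ± 42.0 to 793 ± 42.8. Maml3, a coactivator of the Notch transcription complex, fell from 136 ± 20.9 to 108 ± 25.1. The limma adjusted p of these 4 transcripts lay between 0.483 and 0.561, and the median log2 difference of the list was −0.0012.

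Of the Notch receptors, Notch1 and Notch2 were listed, and of the ligands only Jag2 was, and these were not called. Notch3, Notch4, Dll1, Dll3, Dll4, Jag1, Hes1 and Hes5 were among the 20 genes not listed. The most abundant uncalled transcripts of the list, Mib1 and Dtx3, had means of 3901 and 3917 and of 474 and 485 normalized counts in Sham and HF-HI. The transcripts described next were chosen after their values were seen. Notch1 had 357 ± 26.9 and 358 ± 28.5, Notch2 had 344 ± 39.6 and 346 ± 38.6, and the ligand Jag2 had 228 ± 31.4 and 237 ± 37.5 (SD). Itch, a ubiquitin ligase that acts with Numb on Notch1, had a pair of coding transcripts with log2 differences of −1.09 (ENSMUST00000029126, from 372 ± 100 to 248 ± 137) and 0.47 (ENSMUST00000109685, from 299 ± 86.6 to 423 ± 151), neither of which was called (limma unadjusted p = 0.0699 and 0.0531).

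Endocytic partners of Numb had 18 of 20 genes listed, with 29 transcripts. Of these, 1 was called higher and 1 lower (6.9%), and the median log2 difference was 0.02. Eps15l1, an EH-domain protein of clathrin-coated pits, rose from 304 ± 14.6 to 332 ± 16.4 normalized counts, with 8 of 8 HF-HI libraries above the Sham median (limma adjusted p = 0.450). A transcript of Cltb, a clathrin light chain (ENSMUST00000091609), fell from 355 ± 33.8 to 306 ± 54.8 (limma adjusted p = 0.555). The more abundant Cltb transcript (ENSMUST00000049575) had 508 ± 73.7 and 541 ± 80.2, without a call. Dpysl2, a microtubule-associated protein that binds Numb, had 5098 ± 189 and 5141 ± 158, without a call. The most abundant transcript of Cltc, the clathrin heavy chain (ENSMUST00000103186), had 4880 ± 397 and 4543 ± 440, and the next (ENSMUST00000060766) had 3258 ± 307 and 3545 ± 477, neither of them called. The endocytic transcript with the largest log2 difference upward, named after its values were seen, was Ap2a1 ENSMUST00000107857 (0.61, not called). It had 441 ± 221 and 584 ± 184, with 4 of 8 HF-HI libraries above the Sham median.

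Of the polarity and degradation partners, 6 of 18 genes were listed, with 1 transcript each, and 0 were called (0 at an unadjusted p under 0.05 in limma). Prkcz, an atypical protein kinase C, had 1578 ± 86.8 and 1555 ± 102 normalized counts, and Numa1, a spindle protein, had 788 ± 51.5 and 839 ± 38.8. Over the 3 lists together, calls fell on 6 of 69 transcripts (8.7%, close to the 8.83% of all transcripts). The count ranged from 3 (without Sham replicate 1 or Sham replicate 6) to 8 over the fits that each left out 1 library, was 3 with a replicate block and was 0 with the log2 size factor as a covariate.

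**Figure D5:**
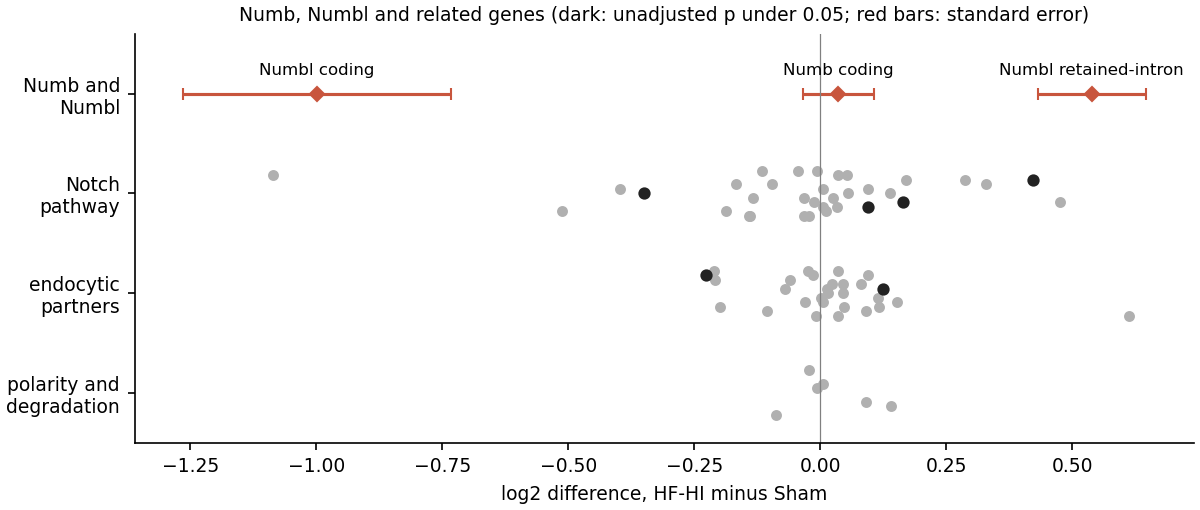
Log2 difference, HF-HI minus Sham, of the 3 listed Numb and Numbl transcripts (red, bars are standard errors) and of the 69 transcripts in lists of Notch pathway, endocytic and polarity genes (dark points have an unadjusted p under 0.05). The list medians lie near 0, and the Numbl transcripts lie at −0.998 and 0.54. Single list transcripts with wide spreads between libraries lie as far out (Itch at −1.09, Ap2a1 at 0.61, neither called).

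The transcripts most like each Numbl transcript were those with the highest Pearson correlation of the deposited values over 15 libraries, after the mean of each group was removed. For the retained-intron transcript these were Vps16 (r = 0.83), Zfp651 (0.82), Vps52 (0.82), Slain2 (0.82) and Cask (0.82). For the coding transcript they were B3glct (0.86), Mrpl41 (0.85), Tubb3 (0.84), Brsk1 (0.84) and Gnpat (0.84). The lists share no gene. Without HF-HI replicate 2, these correlations lay between 0.75 and 0.78 for the former and between 0.79 and 0.88 for the latter. They are the highest among all listed transcripts of other genes and describe likeness within groups, over libraries of unequal depth.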

How the data were processed

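The authors prepared stranded, ribosomal RNA-depleted libraries, aligned reads to mm10 with STAR, counted reads per transcript with eXpress and deposited DESeq2 variance-stabilized values on the log2 scale, with 1 column per library. The annotation release was not given in the sources used here. The transformation was inverted from the value shared by all columns at a count of 0 (9.81). The inverted values fell on a grid with 1 step per library in 100% of cases (tolerance 0.1 reads), which gave size factors and whole reads. A read was worth 0.679 to 2.00 normalized counts, and reads per library in the listed transcripts ranged from 3496103 to 10582858. The lowest mean of a listed transcript was 108 normalized counts. The deposited scale is compressed (0.33 for a doubling at 300 normalized counts), so log2(normalized counts + 1) was used for members. Calls came from limma 3.58.1, run in R 4.3.3 over the deposited values with only the group in the model, eBayes with trend, two-sided, over all 10370 transcripts. No count model was fitted as the main test. The code was tested on simulated data. Transcripts were matched to GENCODE M21 (10238 of 10370), which also gave the sequences. Members, gene lists and tests were chosen with earlier results of these data known. By rule, the list transcripts named were all those called and the 2 most abundant others per list. Outside the rule, further transcripts of Mib2, Cltb and Cltc are given beside the named transcript of the same gene. Any others are marked as chosen after their values were seen. Relations used exact permutation in Python 3.11.15 with scipy 1.17.1. Alternatives changed pseudocount, scaling, filter, prior, covariates, weights (voom) and libraries.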

Additional observations from a re-analysis of the deposited data

How the results depend on the processing

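The direction of each Numbl difference was the same under all alternatives run, and nothing is read from this, because the pair was chosen for its difference. For the retained-intron transcript and the ratio, whose groups did not overlap, leaving out a library could not change the direction. Over the alternatives other than leaving out 1 library, the log2 difference ran from 0.43 to 0.56 for the retained-intron transcript, from −1.21 to −0.95 for the coding transcript, from 1.47 to 1.65 for their ratio and from −0.29 to −0.09 for the Numbl sum. With 1 library left out, the ranges were 0.48 to 0.59, −1.14 to −0.86, 1.35 to 1.70 and −0.18 to −0.07. For Numb they were 0.02 to 0.20 and 0.01 to 0.06. The highest value for Numb was 0.20, for its only listed transcript, whose reads are also its summed reads. It came from the libraries of overlapping depth, an alternative chosen after seeing the data, and the cause was not tested. With the log2 size factor as a covariate, transcripts at an unadjusted p under 0.05 fell in number from 916 to 533, and calls in the related lists from 6 to 0. Leaving out single libraries gave 748 to 987 and 3 to 8. The cause was not tested.

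With a replicate block over replicates 1 to 7 (HF-HI replicate 8 dropped), 890 transcripts and 3 list transcripts were called, the ratio difference was 1.54, the retained-intron difference 0.56 and the coding difference −0.98. The numbers pair libraries only by name: same-numbered libraries had correlations of their deviations between −0.14 and 0.09, and 1 of 7 Sham libraries correlated best with its own number. Without the 2 libraries farthest in size factor, the depth relations of retained-intron Numbl (r = −0.93 in Sham and −0.86 in HF-HI) and of coding Numbl in HF-HI (0.84, with a change of sign) passed an unadjusted 0.05, and those of Numb changed sign (−0.10 in Sham and 0.73 in HF-HI). The widest interval of a share was that of HF-HI replicate 4, with 296 Numbl reads.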
